A study of Danio rerio with 6 samples.

Results

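The axoneme, the microtubule core of the sperm flagellum, was followed through 80 genes in the testis of adult zebrafish. They were taken by name: the genes whose symbol begins with cfap, rsph, drc, dnaaf, odad, dnai or dnal and a digit (or, for dnali1, the letter i), and hydin, gas8, zmynd10, lrrc6, ccdc39, ccdc40, ccdc65 and ccdc103. The rule took 81 of the 32520 genes in the table, and 80 had at least 10 counts in at least 3 libraries. The gene left out carries the symbol DNAL1 (ENSDARG00000097505) and had 8, 20 and 0 counts in the controls and 44, 0 and 0 in the exposed libraries. Of the 8 names given whole, 6 were found. The other 2, lrrc6 and ccdc103, are listed as synonyms of dnaaf11 and dnaaf19, which the rule took by their present names.

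A motile axoneme is a ring of doublet microtubules around a central pair. Outer and inner dynein arms are the motors that slide the doublets. Radial spokes and the nexin-dynein regulatory complex pass signals to those motors and hold the doublets together. Dynein arms are not built in place: assembly factors in the cytoplasm fold and join the chains before they enter the flagellum. In the testis these transcripts come mostly from germ cells that are building a flagellum, and loss of many of the proteins gives immotile sperm or primary ciliary dyskinesia in humans.

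All fish carried the WT genotype. In the 3 exposed animals, polystyrene nanoplastics, very small plastic particles, were added at intervals of 24 h over 96 h through the water, and the 3 control animals were kept in water without them. Neither the labels nor the files give the size or the amount of the particles. The labels give the tissue as testicles and the cells as germline. Each library was made from poly(A) RNA of the testes of 1 fish and is named by its replicate and animal number, as control 1-2, 2-2 and 3-1 and exposed 2-2, 3-1 and 3-3. Values for single libraries are given below in that order. What a replicate number marks is not stated. Exposed 3-1 and exposed 3-3 carry the same number, and whether they shared a tank is not given. The fish were treated as independent, so p-values measure the spread between these fish and not between separate exposures.

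Counts per library totalled between 76205591 and 108273937, and each exposed library was deeper than each control. Levels are TMM-scaled counts per 1000000 (CPM), as mean ± SD with n = 3. CPM are not divided by transcript length, so they show how many reads a gene took and do not rank transcripts of different genes. Log2 fold changes are exposed over control ± SE from edgeR's quasi-likelihood fit. Members printed without an identifier stand outside the naming rule and were named after their values were seen. Markers of the tissue were present, among them SYCP1 of spermatocytes at 1831 ± 137 CPM and DDX4 of germ cells at 554 ± 26.4 CPM in controls, and genes of Sertoli and Leydig cells.

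The design sets exposed testes against control testes after an acute exposure. Of the 80 axoneme genes, 75 had a log2 fold change below 0, with a median of -0.68, where 47.9% of all 26108 genes tested lay below 0 with a median of 0.04. No member passed edgeR's test at an adjusted p of 0.05 (smallest adjusted p = 0.159, for cfap77), as no gene of the table did (0.0% of all genes in either direction). At an unadjusted p under 0.05, 41 members were lower and 0 were higher, against 6.79% lower and 9.68% higher among all genes. DESeq2 called 8 of the 80 lower and 0 higher, where it called 1.46% of all genes lower and 5.51% higher. In counts simulated for this comparison DESeq2 made 122 false calls at the same threshold and edgeR 7, so DESeq2 values below need caution. There edgeR found 1 of 50 genes altered 2-fold, so 0 calls by edgeR do not show that the members were unchanged. Limma voom called 0 members. So did edgeR's bias-adjusted quasi-likelihood method, against 0.0192% of all genes lower and 0.249% higher. At an adjusted p under 0.2 edgeR had 12 members lower, against 2.14% of all genes lower and 4.49% higher, and at 0.1 it had 0, against 0.0% and 0.0651%. The same 75 members were below 0 with 3 other ways of scaling the libraries.

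These counts rested on the libraries and the fit used. In place of 41, edgeR had 17 members lower at an unadjusted p under 0.05 without control 1-2, 26 without control 2-2 and 20 without exposed 2-2. It had 19 without exposed 3-1, 61 without exposed 3-3, 24 with scaling by library totals and 8 with the replicate number in the fit. Among all genes, 4.03%, 4.23%, 4.79%, 3.7%, 8.87%, 4.84% and 3.35% were lower at that p in these settings, in the same order. DESeq2 called 0 members without control 1-2, 4 without control 2-2 and 16 without control 3-1. It called 3 without exposed 2-2, 2 without exposed 3-1 and 47 without exposed 3-3. In that order it called 1513, 1322, 2264, 1029, 1244 and 3558 of all genes in either direction, against 1696 with all libraries. All the members called were lower, and the calls among all genes were not split by direction in these settings. With all libraries 1.46% of all genes were called lower and 5.51% higher. Members of a group such as this share their cells and their libraries, so 80 genes are not 80 independent observations. In bulk RNA, fewer cells of a type and less RNA per cell cannot be told apart.

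**Figure D1:**
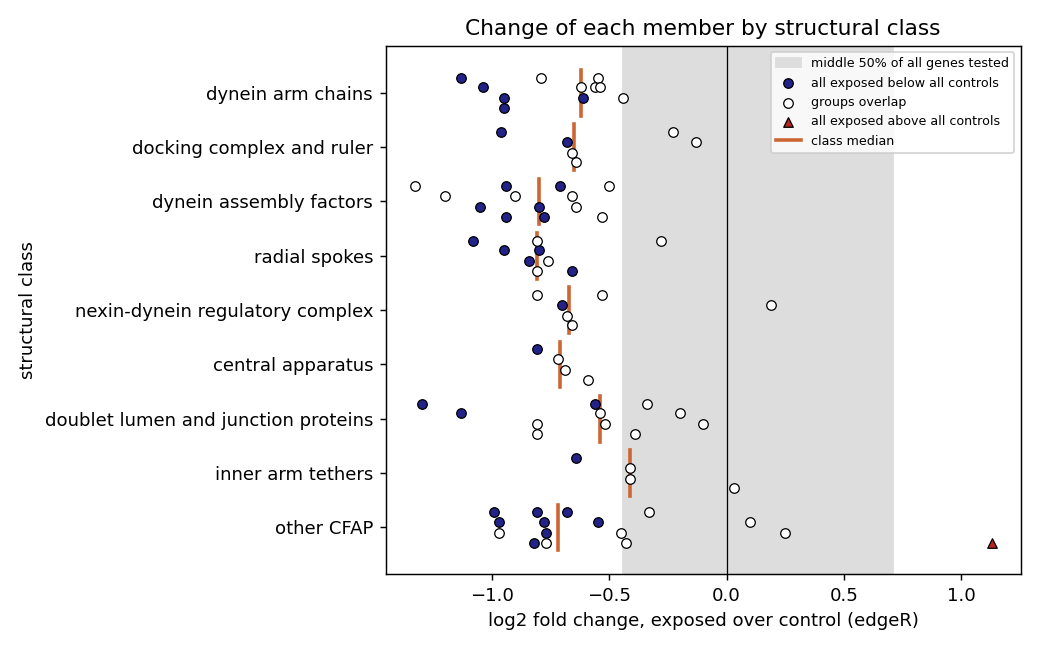
Log2 fold change, exposed over control, of each of the 80 members (points) by structural class, with the class median (orange line) and the middle 50% of all genes tested (grey band). Filled circles mark the 32 members whose 3 exposed libraries all lie below the 3 controls, open circles those that overlap, and the triangle cfap97d2, the member with all exposed libraries above.

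Dynein arm chains were all below 0, and both the largest and the smallest differences sat in intermediate chains. The class held 11 genes, with a median of -0.62. For DNAI2 (ENSDARG00000100285), an intermediate chain of the outer arm, the controls stood at 249, 151 and 201 CPM and the exposed libraries at 76.7, 83.5 and 115 CPM. All 3 exposed fish lay below all 3 controls, with a mean 54.2% lower (log2 fold change -1.13 ± 0.27, edgeR adjusted p = 0.163, DESeq2 adjusted p = 0.00885). Its paralog dnai2b (ENSDARG00000074081) took few reads, with a control mean of 11.5 ± 6.0 CPM and an exposed mean of 7.86 ± 4.36 CPM. The groups overlapped (log2 fold change -0.54 ± 0.54).

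The partner intermediate chain DNAI1 is carried by 2 gene identifiers with the same symbol. ENSDARG00000038788 stood at 158, 148 and 110 CPM in controls and at 54.4, 81.9 and 78.2 CPM in exposed fish (log2 fold change -0.95 ± 0.25, edgeR adjusted p = 0.170, DESeq2 adjusted p = 0.0285). ENSDARG00000100081, with more reads, stood at 493, 353 and 435 CPM in controls and at 302, 203 and 337 CPM in exposed fish (-0.61 ± 0.26, edgeR adjusted p = 0.302). Neither copy overlapped between the groups. How the authors' counting divided reads between such copies is not given, so the values of each copy are uncertain. The ratio of their counts within a library was 0.331 ± 0.0849 in controls and 0.272 ± 0.117 in exposed fish, and overlapped.

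Intermediate chains of the inner arms followed. DNAI7 (ENSDARG00000016815) stood at 121, 87.2 and 61.7 CPM in controls and at 44.8, 31.4 and 55.3 CPM in exposed fish, without overlap, although control 3-1 came close to exposed 3-3 (-1.04 ± 0.32, edgeR adjusted p = 0.190). DNAI3, named after its values were seen, had -0.95 ± 0.30, also without overlap. DNAI4, its partner in an inner arm, had -0.44 ± 0.38, and exposed 3-3 held its highest value (28.9 CPM against 21.5 to 27.1 CPM in controls). The light chains ran from -0.79 to -0.55. DNALI1 (ENSDARG00000069815), a light chain of single-headed inner arms, had a control mean of 306 ± 61.8 CPM and an exposed mean of 209 ± 71.5 CPM (-0.55 ± 0.29). The 2 genes named DNAL4 had -0.62 ± 0.29 and -0.56 ± 0.27 and the remaining DNAL1 gene, a light chain bound to the outer arm motor, -0.79 ± 0.33, each with overlap.

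**Figure D2:**
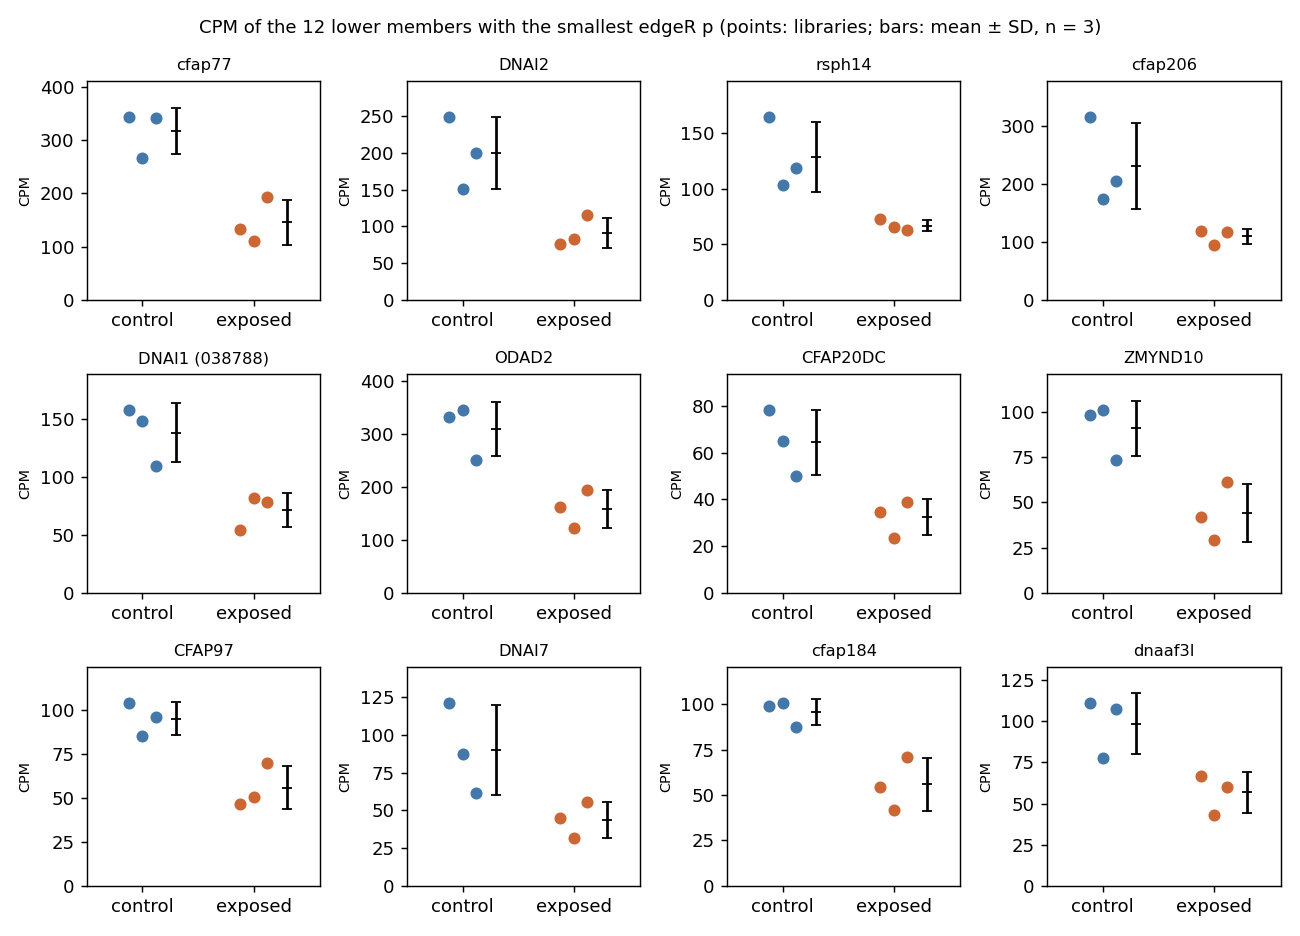
CPM in each library (points, axes from 0) for the 12 members below 0 with the smallest edgeR p, with mean ± SD (n = 3) as bars beside the points. In all 12 panels the 3 exposed libraries lie below the 3 controls, and digits in brackets are the end of the identifier of the DNAI1 gene shown.

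Assembly factors of the dynein arms, 13 genes, were all below 0, with a median of -0.80. ZMYND10 (ENSDARG00000002406), a co-chaperone that works with LRRC6 (DNAAF11) on dynein heavy chains, stood at 98.4, 101 and 73.6 CPM in controls and at 41.7, 29.3 and 61.2 CPM in exposed fish. The groups did not overlap and the mean was 51.6% lower (log2 fold change -1.05 ± 0.30, edgeR adjusted p = 0.180, DESeq2 adjusted p = 0.0442). DNAAF11 itself, named after its values were seen, had -0.50 ± 0.38, with exposed 3-3 (67.3 CPM) above control 3-1 (49.0 CPM).

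The largest SEs of the log2 fold change among assembly factors belonged to dnaaf3 and dnaaf2, which act early in the folding of dynein chains. The latter, named after its values were seen, had the lowest log2 fold change of all 80 members, -1.33 ± 0.48. Its controls spread over 295, 177 and 87.6 CPM and its exposed libraries over 44.2, 78.6 and 99.99 CPM, so that exposed 3-3 passed the lowest control. With 1 library left out its log2 fold change ran from -1.69 to -0.84. For dnaaf3 (ENSDARG00000092662) the controls stood at 104, 80.3 and 44.4 CPM and the exposed libraries at 28.05, 8.29 and 63.0 CPM (-1.20 ± 0.72, edgeR adjusted p = 0.472). Exposed 3-1 was far below all others and exposed 3-3 lay among the controls. Its relative dnaaf3l (ENSDARG00000036304) was steadier, at 111, 77.5 and 107.6 CPM against 67.0, 43.2 and 59.9 CPM, without overlap (-0.80 ± 0.25, edgeR adjusted p = 0.198).

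The members of this class with the most reads were dnaaf19 (ENSDARG00000053455), which ties dynein arms to the doublets, and DNAAF4 (ENSDARG00000099161), a co-chaperone. Levels of dnaaf19 were 593, 291 and 339 CPM in controls and 195, 149 and 310 CPM in exposed fish, and exposed 3-3 overlapped the controls (-0.90 ± 0.37, edgeR adjusted p = 0.278). DNAAF4 had a control mean of 252 ± 40.1 CPM and an exposed mean of 160 ± 66.3 CPM (-0.66 ± 0.31). No overlap was seen for a further 4 genes named after their values were seen: dnaaf1 (-0.94 ± 0.30), dnaaf6 (-0.94 ± 0.32), CFAP298 (-0.78 ± 0.25) and DNAAF10 (-0.71 ± 0.23). Also named then, dnaaf9 (-0.64 ± 0.32) and CFAP300 (-0.53 ± 0.32) overlapped. In the whole class 6 of 13 genes were lower without overlap, against 10.9% of all genes.

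Helpers of the same assembly line that the naming rule leaves out were compared beside them. Of 13 such genes, 11 lay below 0 (median -0.72). At an unadjusted p under 0.05 in edgeR 9 were lower, against 6.79% of all genes, and none passed after adjustment. In 10 the exposed libraries all lay below the controls, against 10.9% of all genes. DAW1, which helps load outer arms for transport, had a control mean of 547 ± 94.7 CPM and an exposed mean of 237 ± 34.1 CPM (-1.21 ± 0.23, edgeR adjusted p = 0.139, DESeq2 adjusted p = 0.000275). RUVBL2, an ATPase of a chaperone complex with other roles in the cell, had a control mean of 397 ± 89.5 CPM and an exposed mean of 224 ± 7.46 CPM (-0.82 ± 0.24). The general chaperone HSP90AB1 had 0.06 ± 0.22. The spag1 paralogs parted: spag1b had -0.78 ± 0.33 and spag1a, with few reads, 0.81 ± 0.48.

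Radial spokes, 9 genes with those of the complex at the spoke base, had the lowest class median, -0.81, and all lay below 0. For rsph14 (ENSDARG00000017983) the controls stood at 164, 104 and 119 CPM and the exposed libraries at 72.4, 65.1 and 62.5 CPM. This was among the few members in which exposed 3-3 was the lowest library (log2 fold change -0.95 ± 0.24, edgeR adjusted p = 0.165, DESeq2 adjusted p = 0.0193). The spoke-associated protein cfap206 (ENSDARG00000021997) stood at 314, 174 and 204 CPM in controls and at 118, 94.3 and 116 CPM in exposed fish. The groups were apart and its mean was 52.6% lower (-1.08 ± 0.27, edgeR adjusted p = 0.165, DESeq2 adjusted p = 0.0135).

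Genes of the spoke head and stalk with more reads were less clear. RSPH4A (ENSDARG00000067606), a spoke head protein, stood at 441, 284 and 256 CPM in controls and at 188, 103 and 267 CPM in exposed fish (-0.81 ± 0.38, edgeR adjusted p = 0.329). Exposed 3-3 lay above control 3-1. The same held for cfap251 (ENSDARG00000059855), of the complex at the spoke base, where exposed 3-3 had 219 CPM and control 3-1 had 216 CPM (-0.76 ± 0.29). The spoke head genes RSPH1 and RSPH9, named after their values were seen, did not overlap (-0.84 ± 0.27 and -0.80 ± 0.30). The member of this class nearest to 0 was rsph10b, at -0.28 ± 0.37.

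The nexin-dynein regulatory complex, 6 genes, had 5 below 0 and a median of -0.67. GAS8 (ENSDARG00000101431), a core subunit also called DRC4, stood at 552, 375 and 429 CPM in controls and at 268, 193 and 373 CPM in exposed fish (-0.70 ± 0.29, edgeR adjusted p = 0.289). The highest exposed value was just under the lowest control. DRC7 (ENSDARG00000100231) stood at 287, 313 and 182 CPM in controls and at 144, 111 and 191 CPM in exposed fish, where exposed 3-3 passed control 3-1 (-0.81 ± 0.30). Of the other subunits DRC1 had -0.66 ± 0.29, DRC3 -0.68 ± 0.27 and ccdc65 (DRC2) -0.53 ± 0.34. The exception was drc12 (ENSDARG00000077161), which took few reads and had a control mean of 15.3 ± 3.78 CPM and an exposed mean of 17.5 ± 7.65 CPM (0.19 ± 0.41, and -0.03 without exposed 3-3).

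Docking complex and ruler genes, 6 in number, were all below 0, with a median of -0.65. They ran from -0.96 to -0.13, and differences among them were not tested. The outer arm docking complex anchors outer arms to the doublets, and CCDC39 with CCDC40 forms the ruler that sets the spacing of arms and spokes. ODAD2 (ENSDARG00000055128), a docking protein, stood at 331, 344 and 251 CPM in controls and at 161, 121 and 193 CPM in exposed fish, without overlap (-0.96 ± 0.25, edgeR adjusted p = 0.170, DESeq2 adjusted p = 0.0181). ODAD4 (ENSDARG00000058140) stood at 283, 281 and 218 CPM in controls and at 170, 113 and 207 CPM in exposed fish, also apart (-0.68 ± 0.27, edgeR adjusted p = 0.274). In contrast odad1, the partner of odad3 in the docking coiled coil, had 176, 184 and 202 CPM in controls and 131, 116 and 230 CPM in exposed fish. Its highest library was exposed 3-3 and its log2 fold change was -0.23 ± 0.29, where odad3 had -0.64 ± 0.29. The ruler gene ccdc40 lay near 0 at -0.13 ± 0.28, and at 0.08 without exposed 3-1, whereas CCDC39 had -0.66 ± 0.30.

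Ratios of counts within a library do not depend on how libraries are scaled, and are given here as a description of the same counts. Counts of ODAD2 over those of odad1 were 1.88, 1.87 and 1.24 in controls and 1.23, 1.05 and 0.839 in exposed fish. The exposed ratios lay below the control ratios, if narrowly for control 3-1 and exposed 2-2. ODAD2 over ODAD4 gave 1.17, 1.22 and 1.15 in controls and 0.948, 1.08 and 0.935 in exposed fish, and CCDC39 over ccdc40 overlapped (1.12 ± 0.338 and 0.781 ± 0.140). These pairs, and odad1, odad3, CCDC39 and ccdc40, were chosen after their values were seen, and the ratios were not tested. Ratios were also taken of dnaaf3 over dnaaf3l, DNAI2 over dnai2b, DNAI2 over DNALI1 and between the DNAL4 genes. All of these overlapped between the groups.

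Central apparatus genes, 4 in number, were all below 0, with a median of -0.71. This apparatus is the central pair with its projections, and hydin is among its largest proteins. For hydin (ENSDARG00000056764) the controls stood at 391, 398 and 252 CPM and the exposed libraries at 232, 141 and 256 CPM (-0.72 ± 0.30, edgeR adjusted p = 0.286). Exposed 3-3 and control 3-1 were nearly level. The projection genes cfap74 (ENSDARG00000075917) and cfap65 had -0.59 ± 0.32 and -0.69 ± 0.43, with overlap, and cfap221 had -0.81 ± 0.32 without it. The last of these and cfap65 were named after their values were seen.

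Proteins of the lumen and junctions of the doublets, 11 genes, held the smallest p and also several of the values nearest to 0, with a median of -0.54. The lumen gene cfap77 (ENSDARG00000068122) stood at 342, 267 and 342 CPM in controls and at 134, 110 and 192 CPM in exposed fish. The groups were well apart, with a mean 54.2% lower (-1.13 ± 0.27, edgeR adjusted p = 0.159, DESeq2 adjusted p = 0.00620). CFAP90, named after its values were seen, took few reads and did not overlap, with a control mean of 6.34 ± 0.510 CPM and an exposed mean of 2.57 ± 1.09 CPM (-1.30 ± 0.50).

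The 2 members of this class with the most reads showed less. CFAP52 (ENSDARG00000101679), inside the doublet, ran over 606, 382 and 265 CPM in controls and 199, 163 and 353 CPM in exposed fish, with wide overlap (-0.81 ± 0.39). CFAP20 (ENSDARG00000100514), at the inner junction, had a control mean of 372 ± 30.1 CPM and an exposed mean of 284 ± 82.6 CPM (-0.39 ± 0.27). Among those nearest to 0, named after their values were seen, cfap144 had 131 ± 7.56 CPM in controls and 101, 79.3 and 186 CPM in exposed fish, so that exposed 3-3 was the highest of the 6 libraries. Its log2 fold change was -0.10 ± 0.32 and lay above 0, by at most 0.12, without exposed 2-2 and without exposed 3-1. The ratio of cfap77 to cfap144, a pair also chosen after their values were seen and not tested, was 2.42 ± 0.201 in controls and 1.25 ± 0.188 in exposed fish, without overlap. CFAP45 spread from 101 to 403 CPM in controls, and its log2 fold change of -0.52 was 0.26 without control 1-2.

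Genes for the tethers and bases of inner arms, 4 in number, had the median nearest to 0, -0.41. CFAP43 (ENSDARG00000001825), of the tether, stood at 386, 301 and 245 CPM in controls and at 215, 140.0 and 241 CPM in exposed fish (-0.64 ± 0.28, edgeR adjusted p = 0.307). Its groups were apart by the small gap between control 3-1 and exposed 3-3. CFAP57 (ENSDARG00000058090), at the base of inner arms, overlapped (-0.41 ± 0.32). CFAP100 (ENSDARG00000111474), with few reads, had 0.03 ± 0.48, and -0.51 without exposed 3-3.

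The remaining 16 genes, cilia and flagella associated proteins (CFAP) outside these classes, had 13 below 0 and a median of -0.72. CFAP20DC (ENSDARG00000026086) stood at 78.1, 65.1 and 49.99 CPM in controls and at 34.7, 23.6 and 38.6 CPM in exposed fish (-0.99 ± 0.27, edgeR adjusted p = 0.172, DESeq2 adjusted p = 0.0424). CFAP97 (ENSDARG00000056381) had a control mean of 95.2 ± 9.37 CPM and an exposed mean of 55.9 ± 12.4 CPM, and cfap184 (ENSDARG00000035963) had means of 95.6 ± 7.21 CPM and 55.8 ± 14.6 CPM. Neither overlapped (-0.77 ± 0.23 and -0.78 ± 0.24, edgeR adjusted p = 0.188 and 0.195). Those with the most reads, CFAP299 (ENSDARG00000088753) and cfap263 (ENSDARG00000006981), were also apart. The former stood at 367, 389 and 473 CPM in controls and at 246, 191 and 333 CPM in exposed fish (-0.68 ± 0.26). The latter stood at 295, 299 and 263 CPM in controls and at 158, 112 and 218 CPM in exposed fish (-0.81 ± 0.27).

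**Figure D3:**
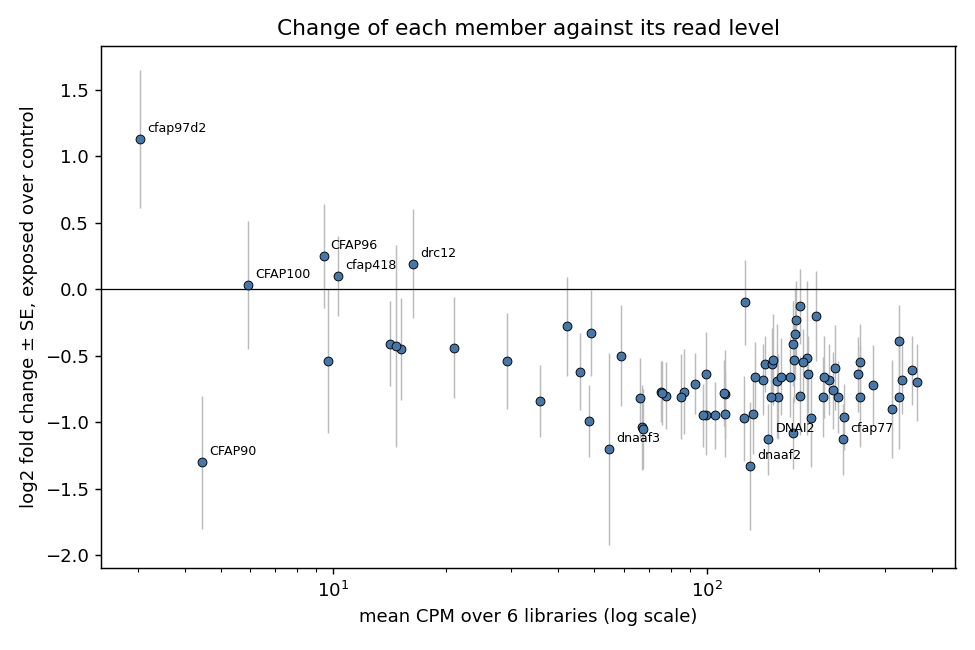
Log2 fold change ± SE of each member, exposed over control, against its mean CPM over the 6 libraries (log scale). The 5 members above 0 all lie under 25 CPM, and the 69 members at or above 25 CPM all lie below 0; labels mark members above 0 or below -1.1.

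All 5 members above 0 took few reads. Among the 11 members with a mean under 25 CPM, 6 lay below 0 and 5 above. In the bands from 25 to 100, from 100 to 200 and above 200 CPM, 20 of 20, 31 of 31 and 18 of 18 lay below 0, with medians of -0.79, -0.66 and -0.71. Among all genes tested, 42.01%, 59.7%, 72.1% and 60.3% lay below 0 in these 4 bands.

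Of the 5, the gene cfap97d2 (ENSDARG00000093739) was apart from the controls in all exposed fish. It stood at 2.04, 2.27 and 1.42 CPM in controls and at 3.86, 3.96 and 4.73 CPM in exposed fish, a mean 2.19-fold higher (1.13 ± 0.52, edgeR adjusted p = 0.328). It was the only member higher without overlap, 1.25% of the members against 12.8% of all genes. For cfap418 (ENSDARG00000090181), linked in humans to retinal disease, the groups overlapped, with a control mean of 9.98 ± 0.531 CPM and an exposed mean of 10.7 ± 1.04 CPM. CFAP96 (ENSDARG00000037142) had 0.25 ± 0.39, and -0.05 without exposed 2-2.

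**Figure D4:**
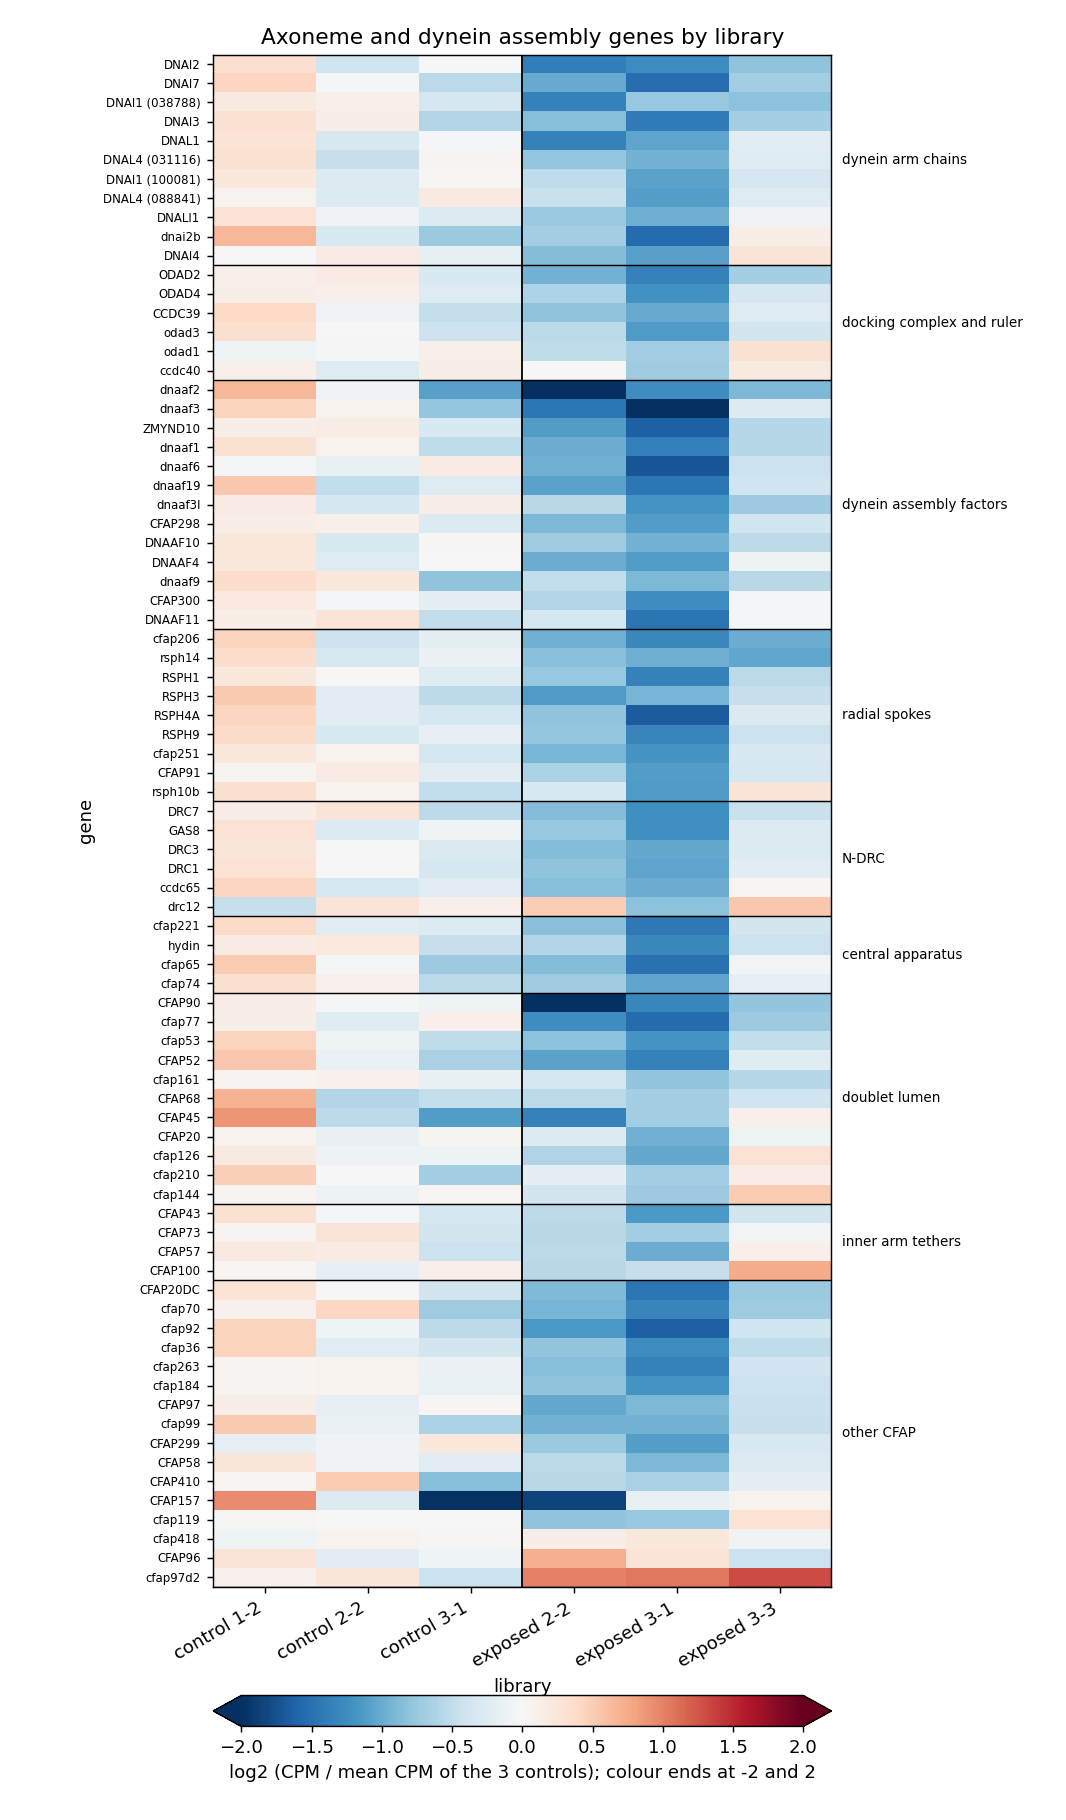
Log2 of CPM over the mean CPM of the 3 controls for each of the 80 members (rows, by structural class) in each of the 6 libraries (columns). Exposed 3-1 is the bluest column, being the lowest of the 6 libraries for 63 members, and exposed 3-3 is the palest exposed column, with 33 members below the lowest control.

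Libraries of the same group differed widely, and most members shared the order. Exposed 3-1 was the lowest of the 6 libraries for 63 members and exposed 2-2 for 10. Exposed 3-3 was the highest exposed library for 72 members. It lay below control 1-2 in 70 of 80 members, below control 2-2 in 57 and below control 3-1 in 40. Among controls, control 1-2 was the highest for 58 members and control 3-1 the lowest for 52. Control 3-1 lay below control 1-2 in 72 of 80 members, and control 2-2 did so in 62. The share of all genes was not taken for the counts in this paragraph.

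Measured against the lowest control, 67 members were lower in exposed 2-2, 73 in exposed 3-1 and 33 in exposed 3-3, where 29.4%, 30.3% and 23.3% of all genes were. The groups did not overlap in 32 members with exposed lower, 40.0% of the members against 10.9% of all genes. That count was 19 with scaling by library totals, 55 without control 3-1 and 66 without exposed 3-3. With a library left out overlap is rarer for any gene, and the share of all genes in these settings was not counted. The 8 members called by DESeq2 were all among the 32. Both measures come from the same libraries, so this adds no separate support.

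**Figure D5:**
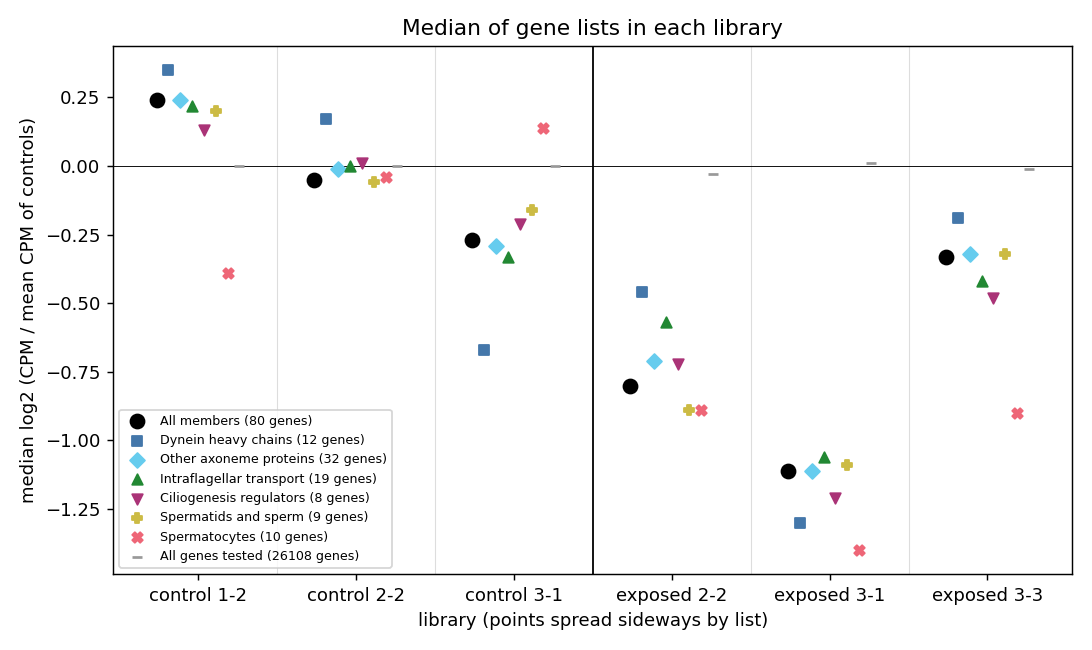
Median log2 of CPM over the mean of the 3 controls in each library, for the 80 members, for lists of other axoneme, transport, regulator and germ cell genes, and for all genes tested (markers). Members, other axoneme proteins and sperm genes lie from 0.20 to 0.24 in control 1-2, from -0.29 to -0.16 in control 3-1, from -0.89 to -0.71 in exposed 2-2 and from -1.11 to -1.09 in exposed 3-1, while spermatocyte genes are lowest of the controls in control 1-2.

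Other genes of the flagellum showed the order of libraries seen in the members. The medians of the 80 members, as log2 of CPM over the control mean, were 0.24, -0.05 and -0.27 in controls and -0.80, -1.11 and -0.33 in exposed fish. For 32 other proteins of the axoneme they were 0.24, -0.01 and -0.29 in controls and -0.71, -1.11 and -0.32 in exposed fish, and all 32 genes had a log2 fold change below 0. Intraflagellar transport, which carries axoneme parts into cilia, had 19 of 19 genes below 0 with a median of -0.64. Of these lists 13 and 11 genes were lower at an unadjusted p under 0.05 in edgeR, against 6.79% of all genes, and none passed after adjustment. The dynein heavy chains, the motor subunits that the arm chains join, had 11 of 12 below 0 with a median of -0.60, and dnah9l above 0 (0.69 ± 0.37). For these chains the median in control 3-1, at -0.67, was lower than in exposed 2-2 (-0.46) and exposed 3-3 (-0.19). Without overlap were 0 of the 12 genes, against 10.9% of all genes lower and 12.8% higher.

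Of 10 listed regulators that switch on genes of motile cilia, 8 were found. All 8 were below 0, with a median of -0.86. At an unadjusted p under 0.05 in edgeR 5 were lower, against 6.79% of all genes, and none after adjustment. The forkhead factor foxj1b stood at 60.7, 52.8 and 31.6 CPM in controls and at 27.9, 17.3 and 31.9 CPM in exposed fish. Control 3-1 and exposed 3-3 were level. The factor rfx3 stood at 359, 223 and 184 CPM in controls and at 144, 114 and 175 CPM in exposed fish, without overlap (-0.82 ± 0.31, edgeR adjusted p = 0.248). Low levels were found for gmnc (12.3 ± 0.877 and 6.57 ± 1.35 CPM), a regulator of cells with many cilia, and for mcidas, of the same cells (1.66 ± 1.06 and 1.01 ± 0.471 CPM). Only rfx3 and E2F5 of these regulators were named by rule. Of the other regulators, E2F5 had -0.92 ± 0.26, FOXN4 -0.89 ± 0.38 and RFX2 -0.59 ± 0.32. TP73 was nearest to 0, at -0.06 ± 0.42.

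Summed levels of cell type markers were also set side by side, and the sums were not tested. The 10 spermatocyte genes were all below 0 (median -1.1) and summed to between 4149 and 5240 CPM in controls and between 1753 and 2732 CPM in exposed fish. Their order in the controls was the reverse of that of the axoneme genes: the list's median was -0.39 in control 1-2 and 0.14 in control 3-1. It was -0.90 in exposed 3-3, where the members stood at -0.33. Of the 9 spermatid and sperm genes tested, 8 were below 0 (median -0.72), with sums of 2089 to 2445 CPM in controls and 1098 to 1707 CPM in exposed fish. Of these 9 genes ROPN1L, TEKT1 and TEKT2 are also on the list of axoneme proteins, and a further marker, TSSK6, was at 0 in all libraries. The early germ cell list had 4 of 7 genes below 0 (median -0.27) and summed to 1954 to 2345 CPM in controls and 1003 to 1707 CPM in exposed fish. Most of that sum came from PIWIL1, DDX4 and DAZL. With few reads, nanos2, NANOS3 and gfra1a lay above 0 (0.05 to 0.84).

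Sertoli cell markers, 5 of 5 below 0 (median -0.49), summed to 2050 to 2267 CPM in controls and 1250 to 1722 CPM in exposed fish. Leydig cell markers were 4 of 4 below 0, with a median of -0.86. Their sums, which overlapped, were 1936 to 3850 CPM in controls and 1317 to 2306 CPM in exposed fish. Leukocyte markers, 5 of 5 above 0, summed to 512 to 858 CPM in controls and 1526 to 3034 CPM in exposed fish. In every library cd74a made up most of the leukocyte sum. Red cell markers, 3 found of 6 listed and all above 0, gave 800.1 to 2042 and 3005 to 4286 CPM. Most of the red cell sum was hbaa1 in every library. For hbaa2 only exposed 3-3 (195 CPM) lay above the controls (24.5 to 53.8 CPM). Epidermal markers, 9 of 9 above 0, gave 784 to 2433 CPM in controls and 12160, 10530 and 1291 CPM in exposed 2-2, 3-1 and 3-3. Kidney tubule markers, whose tissue has ciliated cells, gave 9.47 to 13.6 CPM in controls and 297, 11.8 and 31.3 CPM in exposed fish, 5 of 5 above 0. The kidney sum of exposed 3-1 and the epidermal sum of exposed 3-3 lay among the controls, so both sums overlapped. The part of these markers in the difference of the axoneme genes was not tested.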

How the data were processed

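The 6 libraries share 1 matrix of unnormalised counts that the authors deposited, with an Ensembl gene in each line. STAR and the build GRCz11 are named in the submitters' processing notes. No label says how reads were counted, or how strand, mates and paralogs were treated. Even numbers made up 66.8% to 75.1% of the counts from 10 to 99 in a library, so mates may have been counted apart. Every pair of libraries differed beyond sampling noise (chi-square over degrees of freedom 161 or more). A reference table gave symbols to 29201 of 32520 identifiers. No coordinates are given, since the reference at hand is of another build.

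All 26108 genes kept by filterByExpr were fitted with edgeR 4.0.16 (TMM, robust glmQLFit, glmQLFTest, two-sided, group only, Benjamini-Hochberg over all genes) in R 4.3.3. The SE is the absolute log2 fold change over the square root of F. DESeq2 1.42.0 and limma 3.58.1 were alternatives. With 3 against 3 fish an exact permutation test cannot go below p = 0.1. Counts were simulated for this comparison over 26108 genes, with 50 genes altered at each size. Of genes altered 2-, 4-, 8- and 16-fold edgeR found 1, 15, 25 and 35, beside 7 false calls. By DESeq2 these were 7, 31, 42 and 43, beside 122 false calls. In this simulation the adjusted p of DESeq2 thus understated its share of false calls.

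Members and lists were chosen with earlier results of these data known. Not every listed symbol was found outside the members. Found were 32 of 38 other axoneme proteins, 19 of 23 transport genes, 12 of 15 heavy chains and 13 of 15 assembly helpers. Of germ cell markers 7 of 8 early, 10 of 12 spermatocyte and 10 of 14 spermatid and sperm symbols were found. Among other markers 5 of 7 Sertoli, 4 of 5 Leydig and 5 of 9 kidney symbols were found. So were 5 of 8 leukocyte, 3 of 6 red cell and 9 of 9 epidermal symbols. Named by rule were the 2 members with the most reads per class, the 12 below 0 and up to 5 above 0 with the smallest p, all above 0 when 8 or fewer, and their paralogs, 36 in all. Other genes of the lists serve as comparison. By rule the 2 genes with the most reads in a list could be named, and any others printed were named outside it.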

Additional observations from a re-analysis of the deposited data

How the results depend on the processing

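The direction of 70 of the 80 members was the same in all 22 other settings, and the median of the members stayed between -0.94 and -0.50. Members with an adjusted p under 0.05 numbered 0 in edgeR in every setting and 8 in DESeq2. At an adjusted p under 0.1 there were 0 members and under 0.2 there were 12. DESeq2 with a library left out, added after seeing the data, called between 0 and 47 (4 without control 2-2 and 16 without control 3-1). Over all genes it then called between 1029 and 3558 in either direction, while all the members called were lower. Members lower at an unadjusted p under 0.05 were 24 with library totals and between 17 and 61 with a library left out (17 to 63 with DESeq2). In edgeR these stood against 4.84% of all genes and between 3.7% and 8.87%. In DESeq2 with a library left out they stood against between 4.78% and 11.3% of all genes. Members without overlap were 19 with library totals and between 32 and 66 with a library left out. In the latter, fewer samples make overlap rarer. The share of all genes was not counted in any of these settings, so these counts have no background beside them. With the replicate number as a replicate block 8 members were lower at an unadjusted p under 0.05, against 3.35% of all genes. The median was then -0.51 and 0 were called. Same-numbered fish did not deviate together (correlations across genes of -0.006, 0.019 and -0.034). This cannot settle whether the numbers mark a shared unit, since number 3 covers exposed 3-1 and exposed 3-3, and control 1-2 has no exposed partner. The other 10 turned in at least 1 setting. Of those named by rule these were CFAP100 (-0.06 with limma voom, -0.09 with the replicate block, -0.05 and, with DESeq2, -0.04 without control 2-2, -0.51 and -0.50 without exposed 3-3), CFAP96 (-0.05 and -0.04 without exposed 2-2) and drc12 (-0.03 and -0.02 without exposed 3-3). In edgeR with 1 library left out, these 3 genes reached 0.26, 0.5 and 0.5 at most. Outside the rule, CFAP157, CFAP68, CFAP45, cfap210, ccdc40, cfap144 and rsph10b lay above 0 in at least 1 setting, each with a library left out. The causes were not tested. Overlap of groups has no value under the settings that change only the test or the filter. At these depths 3 counts equal at most 0.0394 CPM, under the level of every member in every library.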
